A study of Mus musculus with 9 samples.

Results

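A set of 3212 p300 peaks lay at H3K4me3 peaks and touched none of the N-MYC, EZH2, SUZ12 or H3K27me3 peaks, in T-cell lymphoma cells driven by MYCN. The members were chosen by the peak calls themselves: each p300 peak overlapped an H3K4me3 peak by at least 1 bp and overlapped no peak of the 4 excluded lists. They were 25.3% of the 12709 p300 peaks on H3K4me3, and the whole p300 list held 15646 peaks on the autosomes, X and Y. What the peak calls fixed is given as a description with no test, and the widths and fold enrichments of the same peaks are described in the same way.

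The cells came from the thymus of C57BL/6J mice, and the labels describe all samples alike as MYCN-driven T-cell lymphoma cells. They do not give the promoter that drives MYCN, the age of the animals, or whether animals were pooled. Each of the 7 antibodies was used on 1 library by ChIPmentation, in which a transposase adds the sequencing adapters while chromatin is bound to the antibody. The other 2 of the 9 samples were inputs and are not analysed here. With 1 library per antibody no difference has a replicate check, so no p-value is given, and differences between antibodies, libraries or animals cannot be told apart. The read depth is unknown, and an absent peak means only that no peak was called. Intervals are 95% Wilson intervals that cover counting error and treat peaks as independent.

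p300, encoded by Ep300, is an acetyltransferase that transcription factors recruit to promoters and enhancers, where it acetylates lysine 27 of histone H3 (H3K27ac) among other residues. Trimethylation of lysine 4 of histone H3 (H3K4me3) marks the nucleosomes around active and poised transcription start sites, and broad H3K4me3 domains are known at genes of cell identity. N-MYC binds E-box DNA with its partner MAX, and EZH2 is the catalytic subunit of Polycomb repressive complex 2, which contains SUZ12 and deposits H3K27me3.

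To show the DNA under the strongest members, the 250 bases upstream of the gene start are printed for the 5 genes of highest p300 fold enrichment whose p300 summit fell in those bases, with 1 gene for each peak, and for Ift27, which was added as a cilium gene after its value was seen. The members shown lay on H3K4me3 peaks with none of the excluded lists. Sequences are the RefSeq promoters of GRCm38.p6, written 5′ to 3′ along the gene. Capitals mark 5 motifs on either strand. The first is GTTGCC, a half-site of the X-box read by RFX factors. The second is a full X-box form, which is GTTNCC followed after any 2 bases by GGNNAC, and it can overlap the first. The others are CCGGAAG, an ETS-type site; the box CCAAT bound by NF-Y; and the E-box CACGTG of MYC-family factors. A match describes the letters and is not a measured binding site.
Blzf1, chr1:164307488-164307737, minus strand: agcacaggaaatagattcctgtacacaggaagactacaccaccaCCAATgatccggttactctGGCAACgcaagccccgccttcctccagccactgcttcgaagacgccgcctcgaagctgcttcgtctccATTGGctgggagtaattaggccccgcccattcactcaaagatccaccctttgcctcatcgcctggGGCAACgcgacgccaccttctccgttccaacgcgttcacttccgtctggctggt
Ankrd13d, chr19:4283138-4283387, minus strand: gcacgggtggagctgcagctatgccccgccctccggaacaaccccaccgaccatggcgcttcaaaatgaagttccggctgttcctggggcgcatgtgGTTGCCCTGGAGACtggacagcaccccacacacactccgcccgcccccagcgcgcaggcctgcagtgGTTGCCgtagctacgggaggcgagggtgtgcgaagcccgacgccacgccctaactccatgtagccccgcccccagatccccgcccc
Map9, chr3:82357822-82358071, plus strand: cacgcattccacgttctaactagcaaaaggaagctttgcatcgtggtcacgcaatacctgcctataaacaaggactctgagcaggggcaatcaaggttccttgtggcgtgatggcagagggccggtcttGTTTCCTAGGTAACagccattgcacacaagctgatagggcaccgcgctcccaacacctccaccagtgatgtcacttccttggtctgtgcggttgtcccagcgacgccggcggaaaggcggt
Flad1, chr3:89411882-89412131, minus strand: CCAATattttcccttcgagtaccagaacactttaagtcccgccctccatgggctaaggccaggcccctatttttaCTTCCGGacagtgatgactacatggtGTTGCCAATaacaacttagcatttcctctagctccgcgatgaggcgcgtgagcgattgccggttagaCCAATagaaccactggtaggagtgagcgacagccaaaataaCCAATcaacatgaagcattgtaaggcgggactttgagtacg
Cenpf, chr1:189688087-189688336, minus strand: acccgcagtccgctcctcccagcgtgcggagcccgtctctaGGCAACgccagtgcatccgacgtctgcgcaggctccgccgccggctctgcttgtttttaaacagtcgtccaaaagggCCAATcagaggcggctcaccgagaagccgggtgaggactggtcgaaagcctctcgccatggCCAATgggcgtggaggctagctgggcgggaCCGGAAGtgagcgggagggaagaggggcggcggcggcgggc
Ift27, chr15:78174082-78174331, minus strand: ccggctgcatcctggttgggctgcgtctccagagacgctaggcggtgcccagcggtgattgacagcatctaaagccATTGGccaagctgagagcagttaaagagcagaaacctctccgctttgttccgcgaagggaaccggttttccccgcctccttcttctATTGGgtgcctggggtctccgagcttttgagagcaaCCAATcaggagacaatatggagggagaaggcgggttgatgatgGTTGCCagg

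The Blzf1 stretch held GTTGCC on either strand at 2 places and CCAAT at 2 places. Ankrd13d held GTTGCC at 2 places, of which 1 lay in the single full X-box form, and Map9 held the full X-box form once and none of the other motifs. Flad1 held CCAAT at 4 places with 1 GTTGCC and 1 CCGGAAG, Cenpf held CCAAT at 2 places with 1 GTTGCC and 1 CCGGAAG, and Ift27 held 1 GTTGCC with CCAAT at 3 places. None of the 6 stretches held the E-box.

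The members fell into sets that differed in their surroundings. On 1810 members (56.4%) the overlapped H3K4me3 peak carried N-MYC, EZH2, SUZ12 or H3K27me3 at another position, and these are called shared below. The other 1402 members (43.6%, 41.9 to 45.4%) lay on H3K4me3 peaks that carried none of them, and these are called unshared. The H3K4me3 peak of a shared member carried N-MYC and EZH2 without a Polycomb feature (SUZ12 or H3K27me3) in 1112 cases, EZH2 without N-MYC in 370, N-MYC without EZH2 in 279, and a Polycomb feature in 49. Another p300 peak, outside the set, was on the same H3K4me3 peak for 1641 shared members (90.7%) and for 12 unshared ones (0.856%). The low share of unshared members follows largely from the rule, because a p300 peak on H3K4me3 outside the set overlaps an excluded peak. Merging p300 peaks within 1 kb of each other before the overlap left 1252 members, of which 84.3% were unshared. Leaving out members with an excluded peak within 1 kb left 1561, of which 86.0% were unshared, a step that removes mostly shared members. The members lay on 2688 H3K4me3 peaks, 15.9% of the list, and 1180 of these peaks carried none of the excluded lists.

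The distance to the nearest excluded peak follows largely from the definition of shared and unshared. A shared member has an excluded peak on its own H3K4me3 peak, and an unshared one has none there. The median distance was 304.5 bp for shared members and 14000.5 bp for unshared ones. Of all members 343 (10.7%) had an excluded peak less than 100 bp away, 336 of them shared and 7 unshared. Just outside the rule, 391 other p300 peaks on H3K4me3 overlapped excluded peaks by less than 100 bp in all. The members just inside and the peaks just outside had a median p300 fold enrichment of 3.78 in both cases, a median H3K4me3 width of 2816 against 2651 bp, and a median H3K27ac fold enrichment of 14.0 against 12.9. Fold enrichment is the authors' ratio of signal over background at a peak, and it is used here only to describe and rank peaks within a list.

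As p300 peaks the members were weak. Their median fold enrichment was 3.88 (quartiles 3.53 to 4.31), with 3.78 for shared and 4.03 for unshared members. p300 peaks on H3K4me3 with EZH2 alone had a median of 4.15, those with N-MYC alone 4.65, and those with both 5.52. The class with neither factor was therefore the lowest of the 4 by this measure. Divided into deciles of p300 fold enrichment, and without the 305 peaks that carry a Polycomb feature, the p300 peaks on H3K4me3 were members in 45.7% of cases in the weakest decile and 3.87% in the strongest, and 32.8% and 93.8% of those members were unshared. In the strongest decile, 45 of the 48 members were thus unshared. The median p300 peak width was 294 bp for shared members, 430.5 bp for unshared members and 1199.5 bp for p300 peaks with both N-MYC and EZH2. With every list limited to a fold enrichment of at least 4 there were 1674 members, and with lists cut to an equal length of 9798 peaks, by q-value, there were 1312. The part of peak width in the choice of members was not tested.

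The H3K4me3 peak under a member had a median width of 2465 bp (quartiles 1553.5 to 3697 bp, range 200 to 13687 bp). Shared members lay on broad H3K4me3 peaks, with a median of 3311 bp, and unshared members on narrow ones, with a median of 1534.5 bp. The medians were 2964 bp with both N-MYC and EZH2, 2971 bp with EZH2 alone and 1846 bp with N-MYC alone. The overall median of the members thus lay between those of its parts. H3K4me3 peaks of at least 5 kb carried 16.1% of shared and 1.78% of unshared members, and peaks narrower than 1 kb carried 0.884% and 29.4%. The width of an H3K4me3 peak and its being shared are not independent measures. With p300 peaks within 1 kb merged, the median width over the members was 1629.5 bp. The median H3K4me3 fold enrichment was 29.2 for shared and 13.6 for unshared members, against 31.7 with both factors.

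**Figure D1:**
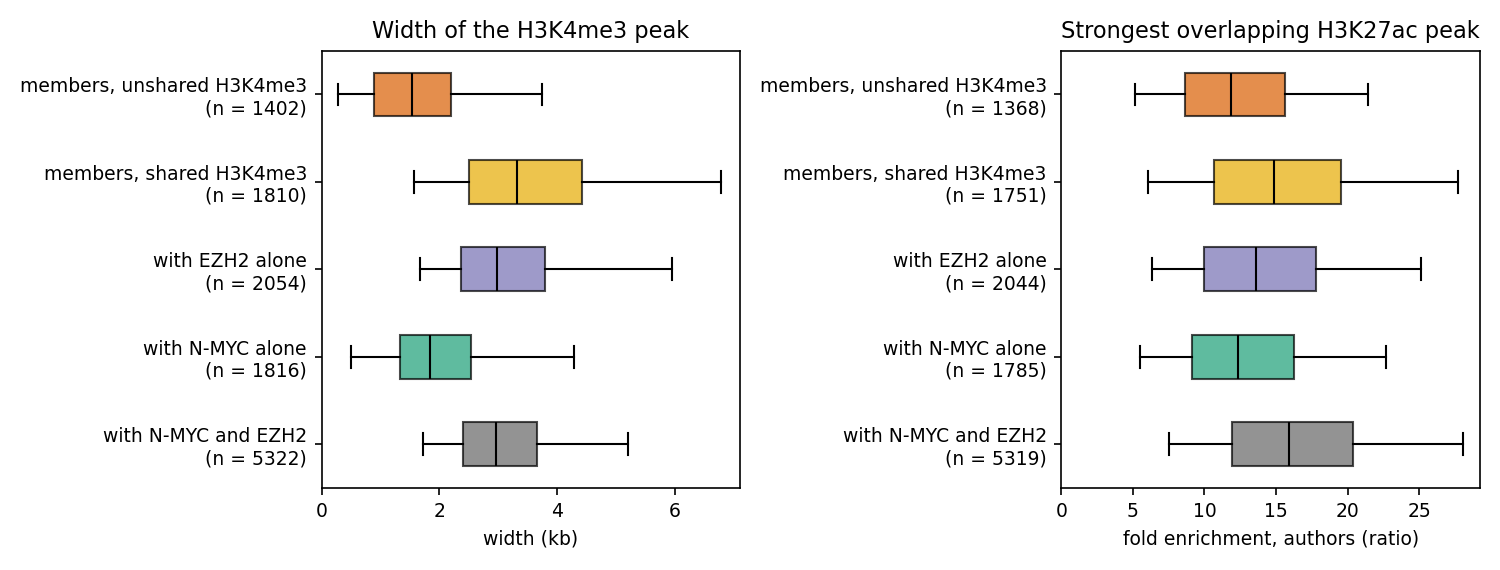
Width of the overlapped H3K4me3 peak (kb) and fold enrichment of the overlapped H3K27ac peak for members on unshared and shared H3K4me3 peaks and for the other p300 classes on H3K4me3, as box plots of single peaks (box, quartiles; line, median; whiskers, percentiles 5 to 95). The unshared members sit on the narrowest H3K4me3 peaks (median 1534.5 bp) and the shared members on the broadest (3311 bp), while the H3K27ac medians lie between 11.8 and 15.9.

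Placed along the H3K4me3 list ranked by width times fold enrichment, the sets peaked at different strengths. Unshared members were on 4.26% of H3K4me3 peaks in the weakest decile, 14.6% in decile 5, 14.4% in decile 6 and 0.533% in the strongest. Shared members went from 0.0592% in the weakest decile to 28.5% in the strongest. Of the H3K4me3 peaks with any p300 peak, 58.1% in the weakest decile and 0.538% in the strongest carried an unshared member. In the weakest decile that was a share of the 7.34% of H3K4me3 peaks with p300, and in the strongest of 98.99%. The share of H3K4me3 peaks with an unshared member was thus highest in the middle of the ranking, while among the few weakest H3K4me3 peaks that had p300 such peaks were the larger part.

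**Figure D2:**
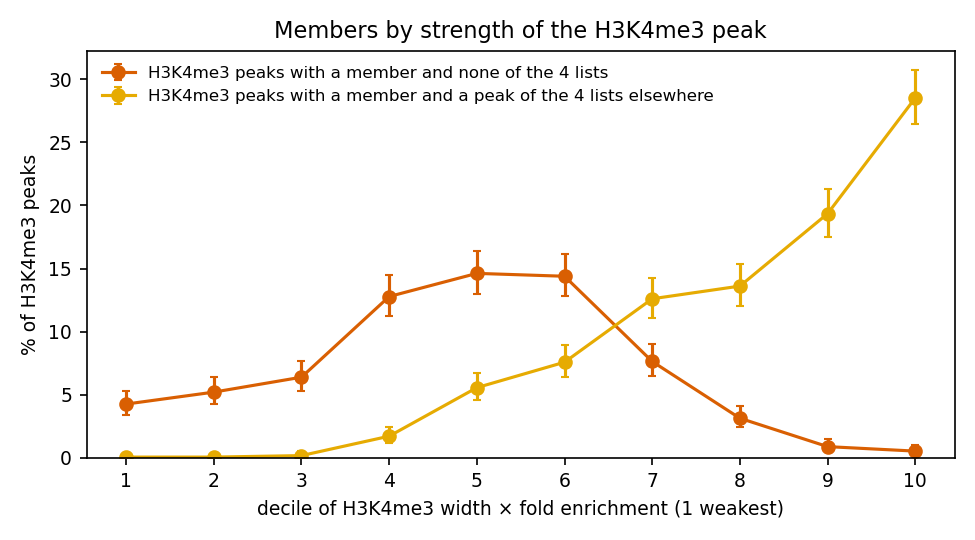
Share of H3K4me3 peaks (%) that carry an unshared or a shared member, by decile of H3K4me3 width times fold enrichment from 1 (weakest) to 10, with 95% Wilson intervals. The unshared share is highest in deciles 5 and 6 (14.6% and 14.4%) and the shared share rises to 28.5% in decile 10.

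H3K27ac, which did not enter the rule, was present at nearly all members. An H3K27ac peak overlapped 3119 members, 97.1% (96.5 to 97.6%), beside 98.5% of all p300 peaks on H3K4me3. The share was 96.7% for shared and 97.6% for unshared members, 98.3% with N-MYC alone, 99.5% with EZH2 alone, 99.9% with both, and 82.6% (78.0 to 86.5%) for the 305 peaks with SUZ12 or H3K27me3. Away from H3K4me3, 92.6% of p300 peaks overlapped H3K27ac. The members were thus within 3 percentage points of the classes with N-MYC, EZH2 or both, and above the class with a Polycomb feature. The median H3K27ac fold enrichment at a member was 13.2, with 14.9 for shared and 11.8 for unshared members. It was 15.9 with both N-MYC and EZH2, 13.6 with EZH2 alone, 12.4 with N-MYC alone and 9.66 with SUZ12 or H3K27me3, so the members lay within the range of the other classes.

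The comparison was repeated among H3K4me3 peaks of like strength, in 5 groups from weakest to strongest. In group 3 the median H3K27ac fold enrichment was 11.8 for members, 13.2 with both factors, 11.2 with EZH2 alone and 11.9 with N-MYC alone. In group 4 these values were 12.5, 14.7, 13.1 and 12.3, and in group 5 they were 16.1, 17.3, 14.5 and 14.4. In group 2, with 36 peaks with both factors, members were the higher at 11.6 against 7.43, and group 1 held 2 such peaks. The share with H3K27ac in groups 3, 4 and 5 was 97.4%, 97.8% and 97.1% for members and 99.8%, 99.9% and 100% with both factors. In groups 3 to 5 the members, shared and unshared, were thus lower in H3K27ac fold enrichment than peaks with both factors. Their share with H3K27ac was lower too, except for the unshared members in group 5. In H3K27ac fold enrichment the members as a whole lay between the classes with 1 factor in groups 3 and 4, and above both in group 5. Of the 1083 members in group 5, 1030 were shared. In groups 3, 4 and 5 the median was 12.1, 13.3 and 16.1 for shared members and 11.8, 11.8 and 14.4 for unshared ones. The unshared members were thus above both classes with 1 factor in none of these groups. All 53 unshared members in group 5 overlapped H3K27ac, beside 2921 of 2922 peaks with both factors.

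Summits of p300 and of the histone marks were offset by different distances. The p300 summit was a median of 252.5 bp from the H3K4me3 summit at unshared members and 941.5 bp at shared members, against 363 bp with both factors. From the H3K27ac summit the medians were 339.5, 887 and 321 bp in the same order. The unshared members had the spacing of the other promoter classes, and the shared members lay farther out on their H3K4me3 peaks.

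The label of promoter holds for some of the members only. The start of a protein-coding gene was at most 1 kb from the p300 summit in 1463 members, 45.5% (43.8 to 47.3%), and in 82.0% with EZH2 alone, 62.8% with N-MYC alone, 90.5% with both and 4.90% off H3K4me3. A window of 500 bp held 27.6% of the members and one of 5 kb 74.7%. Shared and unshared members had near-equal shares (44.7% and 46.6%), but 40.8% of the unshared members and 13.3% of the shared ones lay beyond 5 kb of any such start. Starts of long non-coding RNA genes were within 1 kb of 6.35% of all members and of 8.74% of the unshared members beyond 5 kb. The 813 members beyond 5 kb (25.3%) are described here by their H3K4me3 call and not as promoters.

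Where the strand was known, the shared members flanked the start and the unshared members sat on it. Within 5 kb of a start, the median position of shared members was 754 bp into the gene, and 66.2% lay downstream. Unshared members had a median of 17 bp and 52.7% downstream, close to the 16 bp and 53.0% of peaks with both N-MYC and EZH2. Peaks with EZH2 alone lay downstream in 70.9% of cases, with a median of 247 bp. Start positions with strand were used for 17492 of 21887 protein-coding genes, and either end stood for the start of the others.

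**Figure D3:**
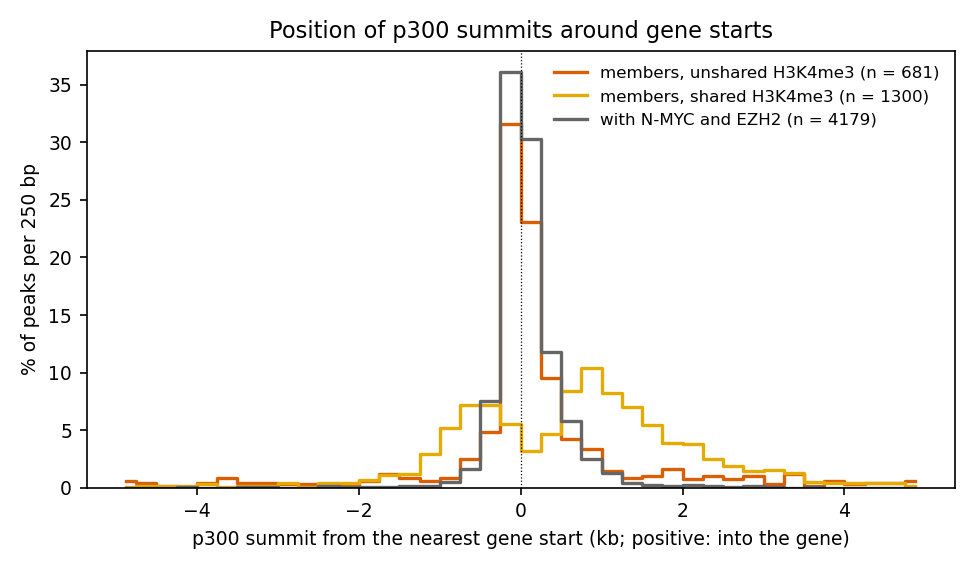
Share of p300 peaks (%) per 250 bp against the distance of the p300 summit from the nearest gene start (kb, positive into the gene). Unshared members and peaks with N-MYC and EZH2 form a peak at the start (medians of 17 and 16 bp), and shared members are spread over its flanks with a median of 754 bp.

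The unshared members changed with distance from a start. Within 1 kb there were 654, with H3K4me3 at a median fold enrichment of 18.9 over 1849 bp, and 95.9% overlapped H3K27ac. Beyond 5 kb there were 572, with H3K4me3 at a median fold enrichment of 7.77 over 1047.5 bp, and 99.7% overlapped H3K27ac. The far members thus had the narrower and weaker H3K4me3 peak but no lower H3K27ac: its median fold enrichment was 13.0 far from and 10.5 near a start, and its median width 3029.5 against 1949 bp. The H3K27ac width far from starts was nearer to the 3337 bp of p300 peaks off H3K4me3 than to the 2429 bp of promoter peaks with both factors.

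The 5 strongest members beyond 5 kb were all unshared. The highest p300 fold enrichment of any member, 13.9, was at chr2:30657410-30659399, 63541 bp from Cstad, on an H3K4me3 peak of 254 bp (fold enrichment 4.80) with H3K27ac at 11.2. The next, at 12.2, was at chr12:85454581-85456042 on an H3K4me3 peak of 291 bp, 18484 bp from the start of Fos, an immediate-early transcription factor gene. The others had their nearest starts at Tex44 (11.7), Kmt2e (9.12), which encodes a SET-domain protein, and Tlcd2 (8.87). The nearest gene is a position and not an assigned target. All coordinates are on mm10, the GRCm38 assembly.

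At gene starts, 1428 of 21887 protein-coding genes (6.52%) had a member summit within 1 kb, and 603 (2.76%) an unshared one. A p300 summit on H3K4me3 was at the start of 8310 genes, of which 17.2% had a member, 7.26% an unshared member, and 707 (8.51%) members and no other p300 peak on H3K4me3. The 5 members of highest p300 fold enrichment at gene starts all lay on H3K4me3 peaks with none of the excluded lists. At Blzf1, which encodes a Golgi protein and whose peak also lay 98 bp from the start of Nme7, p300 had a fold enrichment of 11.7, H3K4me3 32.1 over 2693 bp and H3K27ac 11.6. At Mast3, a microtubule-associated kinase gene, the values were 11.1, 30.5 over 2665 bp and 9.65. Ankrd13d had 10.97 for p300 on an H3K4me3 peak of 716 bp at 5.70, with H3K27ac at 4.64, so a strong p300 peak was found with weak histone marks. Map9, a microtubule-associated protein gene, had 10.7 for p300 and 18.7 for H3K4me3 over 1284 bp, and no H3K27ac peak. Flad1, which encodes FAD synthase, had 10.2 for p300, 19.9 for H3K4me3 and 8.52 for H3K27ac.

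The 5 genes on the widest H3K4me3 peaks were all shared. Zbtb7b, the factor that directs thymocytes to the CD4 lineage, lay on an H3K4me3 peak of 13687 bp that carried EZH2 elsewhere, with a member of 200 bp at a p300 fold enrichment of 3.41, near the lower end of the list. The other widths were 10799 bp at Surf1, 9905 bp at Pik3cd, which encodes the leukocyte phosphoinositide 3-kinase delta subunit, 9708 bp at Ldb1, a bridging cofactor of LIM-domain proteins, and 9187 bp at Prrt2. Their p300 fold enrichments ran from 3.18 at Surf1 to 5.77 at Pik3cd. Among members within 1 kb of a gene start, the 5 of highest H3K27ac were shared as well. Members beyond 5 kb of a start reached an H3K27ac fold enrichment of 37.3, and unshared ones there 33.8. Near starts, Sf3b1, a core splicing factor, had a fold enrichment of 34.4, Rps14, a ribosomal protein, 32.9, Hnrnpu 32.7, Sephs2 32.6 and Naca 32.3. Their H3K4me3 peaks carried both N-MYC and EZH2 elsewhere, and the p300 members there had fold enrichments of 3.32 to 4.03.

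Of the 93 members without H3K27ac, 51 lay within 1 kb of a gene start. The strongest p300 among these were all unshared and sat close to the start. They were Map9 at 10.7, Ipo4, an importin gene, at 7.49, Ttll13 at 7.26, Gas8 at 6.83 and Wdr35 at 6.76. Their summits were 44, 38, 12, 45 and 14 bp from the start in that order, and their H3K4me3 peaks were 895 to 1284 bp wide. Gas8 encodes a subunit of the dynein regulatory complex of motile cilia, and Wdr35 a component of intraflagellar transport, the traffic along cilia.

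That observation led to a count of cilium gene families, chosen after the values had been seen, so the count is a description. Of 85 genes matched by family symbol, 39 had a p300 summit on H3K4me3 at the start, 19 of these had a member and 16 an unshared member (48.7% and 41.0%, beside 17.2% and 7.26% of all genes with p300). In the Bardet-Biedl family, whose proteins carry membrane cargo of cilia, 4 of 7 genes with p300 had an unshared member: Bbs12 at a p300 fold enrichment of 9.09, Bbs2 at 7.88, Bbs1 at 4.03 and Bbs4 at 3.53. Bbs12 and Cetn4 share a single peak with its summit between their starts, so it counts as 1 site. Other sites also lay within 1 kb of the start of a gene outside these families: Cfap61 with Crnkl1, Cfap52 with Stx8 and Dync2h1 with Dcun1d5. The intraflagellar transport genes had 4 unshared of 12 with p300, led by Ift27 at 8.87 and Ift81 at 6.26. Motile-cilium genes were among the others, with the radial spoke gene Rsph1 at 8.16, Cfap61 at 7.88 and the axonemal dynein Dnah1 at 4.11. No H3K27ac peak overlapped the strongest member at Ift22, Bbs1, Dync2h1 and Cfap77.

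Other lists covered T-cell and general functions, and were written with earlier results of these data known. Of 16 interferon-stimulated genes with p300, 5 had a member (31.25%) and all 5 were unshared. Over all genes with p300, 17.2% had a member and 7.26% an unshared one. Irf3, the transcription factor that starts the interferon response, had a p300 fold enrichment of 5.40 and H3K27ac of 13.5. The summit of that peak lay 212 bp from the start of Irf3 and 143 bp from the start of Bcl2l12. Ifi35 had 5.02 and 13.4, and Isg20, an exonuclease gene, carried 3 members on a single H3K4me3 peak of 4342 bp, the strongest at 4.53. Irf7 had 3.78, with H3K4me3 at 21.7 over 1597 bp, and Rsad2, the antiviral viperin gene, had 3.90, with H3K4me3 at 4.57. The absence of N-MYC, EZH2 and Polycomb calls on these H3K4me3 peaks follows from the definition of an unshared member. H3K27ac overlapped 97.6% of all unshared members.

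T-cell genes were at both kinds of member. Of 18 T-cell receptor and proximal signalling genes with p300, 4 had a member (22.2%, near the 17.2% of all genes with p300): unshared at Cd2, an adhesion receptor, and at Themis, a thymocyte selection protein, and shared at Cd28, the co-stimulatory receptor, and at Lck, the kinase that starts receptor signalling. The Cd2 members lay on an H3K4me3 peak of 4123 bp with 89347 bp and 88393 bp to the nearest excluded peak, and both had a p300 fold enrichment of 4.40. The stronger Themis member also had 4.40, with 241910 bp to the nearest excluded peak. Both genes were thus T-cell promoters far from any N-MYC or EZH2 call. Of 19 T-cell transcription factor genes with p300, 3 had a member (15.8%), unshared at Runx1 (3.88) and Runx3 (3.76) and shared at Zbtb7b. At Runx1 and Runx3 other p300 peaks also lay near a start. Of 21 cytokine receptor and JAK-STAT genes with p300, 8 had a member (38.1%), unshared at Tyk2 (4.90), Jak3 (4.26) and Il21r (3.41).

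Among the other lists, DNA repair had 8 genes with a member of 39 with p300, 4 of them unshared (20.5% and 10.3%, near the 17.2% and 7.26% of all genes with p300). Xrcc1, a scaffold of single-strand break repair, was the strongest at a p300 fold enrichment of 9.48, followed by Brca1, a homologous recombination factor, at 8.87, Xpa at 5.02 and Fanca at 3.78. The Brca1 peak (chr11:101551342-101553448) covered the divergent starts of Brca1 and of Nbr1, an autophagy receptor gene. Its summit was 24 bp into Nbr1 and 723 bp from the start of Brca1. Apoptosis had 7 of 26 (26.9%), with Casp6, an executioner caspase, at 7.26, Bmf, a BH3-only protein, at 5.96 and Tradd at 4.15 unshared. Autophagy and lysosome had 6 of 29 (20.7%), with Nbr1, Mcoln1 (4.31) and Map1lc3a (4.28) unshared. Kat5, the TIP60 acetyltransferase, was the 1 unshared gene of the chromatin regulators, of which 6 of 49 (12.2%) had a member, and had a p300 fold enrichment of 5.40 with H3K27ac at 22.8.

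The remaining lists are read against the 17.2% of all genes with p300 that had a member. Cytosolic ribosomal proteins had 3 of 35 genes with p300, 8.57% (Rpl10 unshared, Rps19 and Rps7 shared), oxidative phosphorylation 3 of 29 (10.3%) with none unshared, glycolysis 1 of 19 (5.26%; Pgk1, shared) and ubiquitin ligases and deubiquitinases 3 of 37 (8.11%) with none unshared. Vesicle transport had 3 of 43 (6.98%) with Vps41 unshared, and core and ETS-family transcription factors 4 of 40 (10%) with Nfyc unshared. These 6 lists were below the share of all genes. Antigen presentation had 2 of 13 (15.4%) with none unshared, and the immediate-early and NF-kB genes 5 of 25 (20%), all shared: Fosb, Rel, Nfkbie, Egr2 and Relb, so both were near it. Of unshared members the share over all genes with p300 was 7.26%. With lists of 13 to 49 such genes, a change of 1 or 2 genes moves a share by several points.

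**Figure D4:**
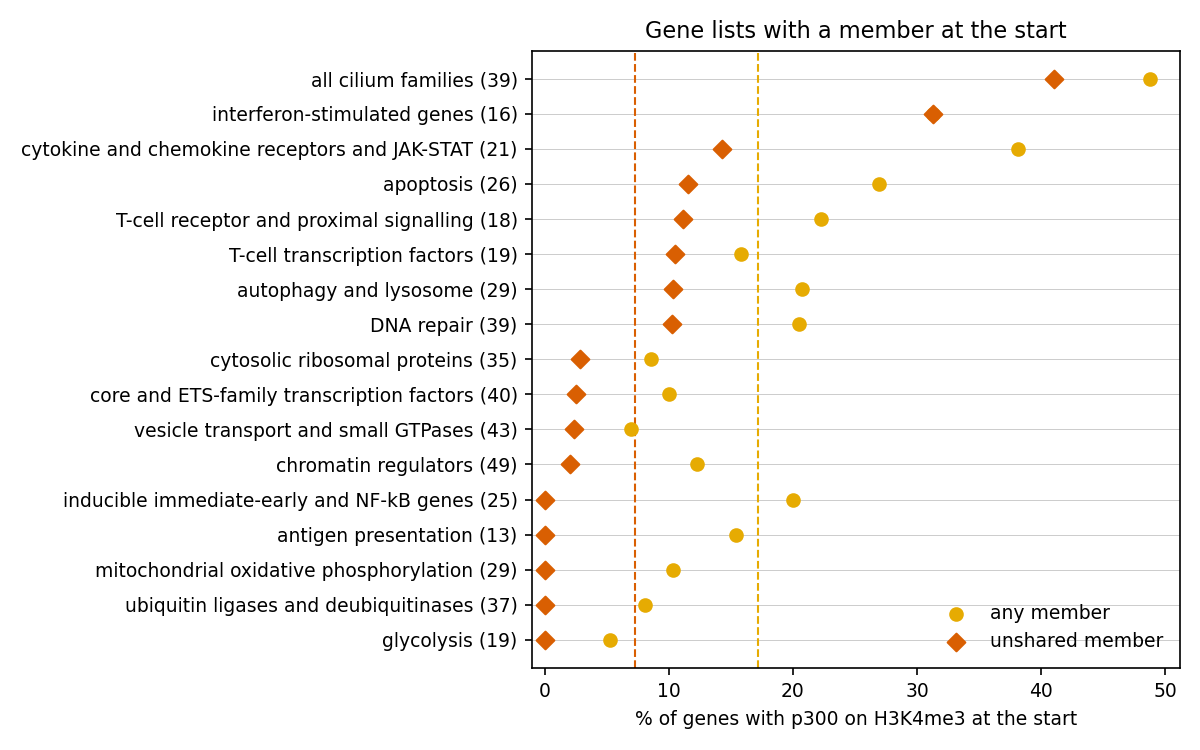
Share of genes (%) with any member (circles) or an unshared member (diamonds) at the start, among the genes of each list with p300 on H3K4me3 there (number in parentheses). Where both are equal, as for the interferon-stimulated genes with 5 of 16, the symbols overlie, and dashed lines mark all genes with p300 (17.2% and 7.26%).

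Sequence composition was read in the 300-base RefSeq promoters that held the p300 summit of a member. Of 21238 promoters listed, 303 held the summit of an unshared member, and 2324 that of a peak with both N-MYC and EZH2. CACGTG was in 7.59% of the unshared promoters (5.11 to 11.1%), 7.84% of all promoters, 14.6% of those with both factors and 17.7% of those with N-MYC alone. The E-box share at unshared members was thus close to that of all promoters, as were those at shared members (7.87%) and with EZH2 alone (7.45%). CCAAT was in 57.8%, beside 38.2% of all promoters and 42.0% with both factors, and CCGGAAG in 26.4%, beside 11.6% and 27.9%. The GC box GGGCGG was in 63.0%, beside 46.2% and 74.5%, and TATAAA in 6.27% of unshared and 12.6% of all promoters. TATAAA was low in the other p300 classes too: 5.62% at shared members, 5.21% with EZH2 alone, 4.84% with N-MYC alone and 4.60% with both. For the other motifs searched the shares in unshared and in all promoters were 17.2% and 14.97% for TGTGGT, a RUNX-type site, and 5.61% and 6.99% for TGANTCA, an AP-1 site. They were 2.64% and 1.33% for the NRF1 palindrome, 3.30% and 3.05% for a YY1-type site, and 3.96% and 2.24% for the full cAMP response element. The interval of the unshared members held the share of all promoters for the RUNX, AP-1 and YY1 motifs. The median ratio of observed to expected CpG was 0.715, between 0.567 for all promoters and 0.877 with both factors.

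GTTGCC was searched for after the strongest genes had been seen, and so is a description too. It was in 22.4% of unshared promoters and 12.7% of all. Among the 101 unshared promoters of highest p300 fold enrichment (at least 5.15) it was in 34.7%, and among the 101 lowest (at most 4.03) in 11.9%. The full X-box form was in 13.9% and 2.97% of these, and in 1.37% of all promoters. The same direction was found with both N-MYC and EZH2, where GTTGCC was in 21.2% of the 774 strongest and 8.40% of the 774 weakest promoters, so a higher share at high p300 is not particular to the members. Leaving out the cilium family genes took the strongest unshared promoters from 101 to 98, of which 34.7% held GTTGCC. So few promoters were left out that this step could hardly change the share. The families were matched by symbol and did not include Gas8 or Wdr35. Whether the motif share depends on cilium genes was not tested. Map9 and Ankrd13d, printed above, are 2 of the strongest promoters with the full form.

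**Figure D5:**
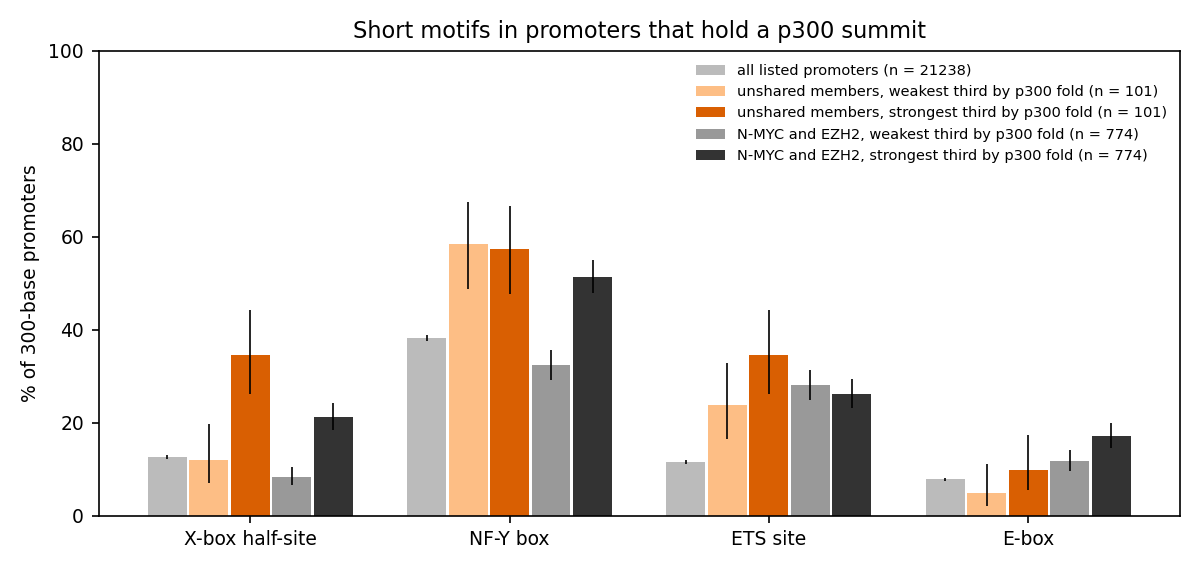
Share of 300-base promoters (%) that hold each short motif on either strand, with 95% Wilson intervals. Shown are all listed promoters and the weakest and strongest by p300 fold enrichment of the unshared members and of p300 with N-MYC and EZH2. The X-box half-site is at 34.7% in the strongest unshared promoters and 11.9% in the weakest, and the E-box at 9.90% and 4.95%.

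The labelled cell type was read from marker genes with a peak within 1 kb of the start. All 9 T-cell markers had p300, H3K4me3 and H3K27ac, and 2 of them, Cd2 and Lck, had a member. None of the 7 B-cell, 7 myeloid, 7 thymic epithelial or 7 stromal markers had p300, between 0 and 2 of each list had H3K4me3, and H3K27ac was at 4, 4, 3 and 2 of them in that order, with the highest fold enrichment, 25.3, at the myeloid gene Cd68. All 7 erythroid markers had H3K4me3 (fold enrichment 9.74 to 19.8) and H3K27ac, 1 had p300 (Klf1), and none had a member. The part of erythroid and other cells in the histone peaks under members was not tested. Over 20 chromosomes, leaving out Y with its 1 member, the share of members among p300 peaks on H3K4me3 ran from 21.2 to 40.2%, that with H3K27ac from 95.2 to 100%, and that unshared from 36.1 to 61.8%. The highest share of members and the highest unshared share were both on X, which had 68 members. The highest autosomes were chromosome 10 with 29.7% members and chromosome 7 with 50.2% unshared.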

How the data were processed

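Each antibody had 1 deposited peak list. The submitters' processing notes name FastQC, Bowtie2, SAMtools, MACS2 and deepTools and the builds mm10 and GRCm38, without roles or versions, and whether inputs served as controls or libraries were pooled is not given in the sources used here. Fold enrichments are a ratio deposited by the authors, used unchanged. The −log10 p-value and −log10 q-value are also as deposited, with a smallest −log10 q of 2.00 to 2.08 over the lists, and the whole-number score the authors deposited was not used. These columns were identified from the layout and values.

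Overlaps of at least 1 bp were computed in Python 3.11.15 with numpy 2.4.6 and pandas 2.3.3, and tested on simulated data. Where several peaks of a list overlapped a member, the one of highest fold enrichment represents it. Gene starts came from RefSeq GRCm38.p6, which matches the build of the files. No test was planned or made.

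Named genes were taken from members within 1 kb of a gene start. They were the 5 each of highest p300, widest H3K4me3, highest H3K27ac and highest p300 without H3K27ac, and up to 3 per function list. The members and lists were chosen with earlier results of these data known. Cenpf, list genes beyond those 3, the cilium families, both X-box motifs, the split of promoters by p300 strength, the distal members named, the deciles and 2 gene-start alternatives were chosen after seeing values.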

Additional observations from a re-analysis of the deposited data

How the results depend on the processing

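The 5 results gave 41 values under alternative settings. Of these, 9 differed from the value in the report by less than its counting interval, or by less than 1.5 times for the count, and 32 differed by more. No result has a test, and the cause of each move was not tested. With every list limited to a fold enrichment of at least 4, there were 1674 members (main count 3212), with a median H3K4me3 width of 2365 bp, 60.0% unshared, 96.1% with H3K27ac and 52.2% near a gene start. With lists cut to an equal length of 9798 peaks these values were 1312, 2725.5 bp, 57.5%, 75.2% and 62.1%. Requiring no excluded peak within 1 kb gave 1561, 1735 bp, 86.0%, 97.9% and 42.7%. Merging p300 peaks within 1 kb gave 1252, 1629.5 bp, 84.3% and, near a start, 51.8%. Counting an overlap from 50% of the shorter peak upwards gave 2607.5 bp, 35.0%, 94.6% and 52.4%, and a q-value of at most 1e-05 in all lists gave 2411 bp, 55.2% and, near a start, 50.4%. An H3K27ac peak lay anywhere on the H3K4me3 peak for 98.9% of members and held the p300 summit for 92.9%. The near-start share was 27.6% at 500 bp, 74.7% at 5 kb, 38.3% with listed starts only and 48.6% with long non-coding RNA starts added; these last 2 were chosen after seeing the data.

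The median width, the count and the shares thus describe the lists at the authors' threshold. The unshared members were the larger part under 5 of these settings and the smaller part in the lists as deposited, with the 50% overlap, and with the p300 summit inside the H3K4me3 peak (42.2%). Among the 5, requiring no excluded peak within 1 kb removes mostly shared members. Such a peak was present for 88.0% of shared and 4.21% of unshared members. Depth is unknown, so what it limits was not tested. No paired analysis was possible because each antibody had 1 library.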
